A study of Equus caballus with 6 samples.

Results

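The genes described here are 10 components of the circadian clock, PER2, PER3, CRY1, CRY2, BMAL1, CLOCK, NR1D1, NR1D2, DBP and RORA, measured in the testes of adult stallions. Members were the array probes to which the platform annotation assigns exactly 1 of these symbols. That gave 14 probes for 9 of the 10 genes, out of 23472 probes with a single symbol for 18278 genes. NR1D1 had no probe of its own. Its single probe is also assigned to THRA, a gene that overlaps it on the opposite strand, and it is given apart. The horse gene table of the assembly TB-T2T holds all 10 symbols.

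The clock is a transcriptional feedback loop that runs in most cells. BMAL1 and CLOCK form a dimer that switches on the PER and CRY genes, whose proteins accumulate and repress that dimer. In a second loop the nuclear receptors NR1D1 and NR1D2 (REV-ERB alpha and beta) repress BMAL1 and RORA activates it, and outputs such as the transcription factor DBP carry the rhythm to other genes. Glucocorticoids are known to reset clocks of peripheral tissues, partly through glucocorticoid response elements at PER1 and PER2. In rodents the testis is known as a tissue in which clock transcripts cycle little over the day.

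Dexamethasone, a synthetic glucocorticoid, was injected intravenously at 0.1 mg/kg into 3 stallions, and 3 control stallions were given the same volume of saline. All 6 had been held in the clinic for 10 days beforehand, and testes were collected at a single time, 12 h after injection. Minced parenchyma holds germ, Sertoli, Leydig and other cells together, so that fewer cells of a type and less RNA per cell cannot be told apart. Neither the clock time of collection nor the exact age of the animals is stated in the sources used here. Horse RNA of each stallion was read on 1 CodeLink human array, and nothing but the separate animals makes the replicates.

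Between 42.5% and 47.8% of 53423 gene probes were above background per array. The slide numbers form 2 runs. The first holds replicates 1 and 2 of each group and the second holds replicate 3 of each, so a run does not separate the groups. Testis markers were detected. Of the Leydig markers with a probe, 3 of 6 were above background on all 6 arrays, namely INSL3, LHCGR and STAR but not CYP11A1, CYP17A1 and HSD3B2. For Sertoli cells it was 6 of 8, among them AMH, DHH and FSHR. For spermatogonia it was 4 of 7, namely GFRA1, DMRT1, KIT and ZBTB16. For spermatocytes it was 4 of 5, among them SYCP1, DMC1 and SPO11, and for spermatids 5 of 7, among them TNP2, ACRV1 and ODF1. The human probes of SOX9, DDX4, UCHL1, HORMAD1, PRM2 and TNP1, further markers of Sertoli and germ cells, were above background on 0 arrays. Of the 3 peritubular myoid markers with a probe, 0 were above background on all 6 arrays, and MYH11 and CNN1 were so on 0. Of the other cell types, the macrophage markers CD163, CSF1R and CD14, the lymphocyte marker PTPRC and the epididymal marker CRISP1 were also at 0 arrays, while CD68, CD3E, CD2, PECAM1, PAX2 and DEFB129 were above background on all 6. Adjusted over all probes, limma called 0 of the tested markers, where it called 1 of 24590 probes over the array (0.00407%). With so small a share over the array, the count of 0 says nothing about the mix of cells.

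Most clock genes had a probe above background in stallion testis. None of their tested probes passed limma's test adjusted over all probes, which called 1 of 24590 probes over the array (0.00407%). With so small a share over the array, that count says nothing particular to the clock genes. CRY1, CRY2, DBP, BMAL1, 1 of 2 CLOCK probes, 2 of 3 NR1D2 probes and 2 of 3 RORA probes were above background on every array. PER2 and PER3 lay at the detection limit. The largest differences were those of 1 NR1D2 probe, at 0.29 ± 0.14, and 1 dim RORA probe, at -0.35 ± 0.19 (log2, SE), and in both the groups overlapped.

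Detection was read from the quality flag in the files. The files also give a signal strength, the spot mean over a noise level that equals the local background median plus 1.5 standard deviations of that background. Of 171167 spots flagged L alone, taken as near background, 171158 had a signal strength under 1, and all 144993 gene spots flagged G alone, taken as above background, had 1 or more. Over the 14 probes and 6 arrays, 63 of 84 spots were above background, with 9 to 12 of 14 probes per array. On 9 of the 14 probes all 6 arrays were above background and on 1, CLOCK GE53063, none was. The remaining 4 probes, for PER2, PER3, NR1D2 (GE86202) and RORA (GE570332), were above background on 2, 2, 2 and 3 arrays. With a stricter limit of 3 background standard deviations 51 of 84 spots remained above it.

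**Figure D1:**
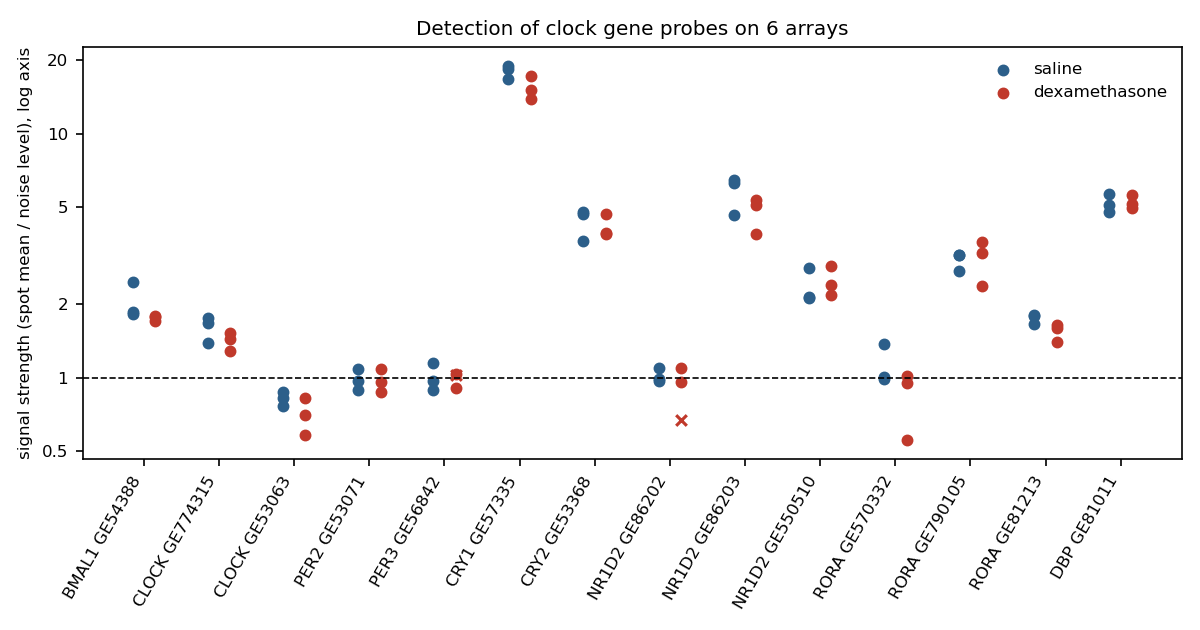
Signal strength (spot mean over noise level, log axis) of the 14 clock gene probes on each array, saline in blue and dexamethasone in red, with the detection limit of 1 as a dashed line. Crosses are the 2 spots with a quality flag that were treated as missing. The CRY1 probe lies between 13.9 and 19.0, while the PER2 and PER3 probes straddle the limit and CLOCK GE53063 stays below it on all 6 arrays.

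Levels are normalised log2 intensities, listed for replicates 1, 2 and 3 of a group in that order. A level belongs to its own probe and is not set against that of another probe. Differences are dexamethasone minus control with limma's standard error, and a probe was tested where at least 3 arrays were above background.

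BMAL1, the partner that binds E-boxes together with CLOCK, was read by probe GE54388 at 7.15, 7.25 and 7.08 in the dexamethasone stallions and at 7.43, 7.14 and 7.28 in the controls. The highest value was that of control replicate 1, and the groups overlapped through control replicate 2. The spot means ranged from 122 to 180 over backgrounds of 41 to 46. The group means were 7.16 ± 0.08 and 7.28 ± 0.15 (SD, n = 3 each), a difference of -0.12 ± 0.10 (SE) with a 95% interval from -0.34 to 0.10. CLOCK, the histone acetyltransferase and DNA-binding partner of BMAL1, gave a usable signal on probe GE774315, at 6.74, 7.00 and 7.10 with dexamethasone and 7.00, 7.19 and 7.08 in controls. Dexamethasone replicate 1 was the lowest and control replicate 2 the highest, and the other 4 lay between 7.00 and 7.10. The difference was -0.14 ± 0.11 (SE), with an interval from -0.38 to 0.10. The second CLOCK probe, GE53063, had spot means of 45.8 to 71.9 over backgrounds of 46 to 55 and gives only an upper bound, so no difference is stated for it.

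Among the repressors, CRY1 stood far above background, with spot means of 1120 to 1429 over 45 to 49. The cryptochromes are the proteins that most directly block the BMAL1 and CLOCK dimer. CRY1 (GE57335) was at 10.19, 10.62 and 10.23 with dexamethasone and 10.14, 10.44 and 10.41 in controls. Dexamethasone replicate 2 was the highest and control replicate 1 the lowest, and each group covered most of the other's range. The difference was 0.02 ± 0.13 (SE), and the 95% interval from -0.28 to 0.31 corresponds to 0.825-fold to 1.24-fold. CRY2 (GE53368) was at 8.58, 8.55 and 8.45 against 8.54, 8.49 and 8.47, so that all 6 stallions lay within 0.13 of each other. Its difference was 0.03 ± 0.08 (SE), with an interval of 0.898-fold to 1.16-fold.

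The PER genes, whose proteins bring the cryptochromes to the nucleus, were read near the limit of detection. PER2 (GE53071) was above background in dexamethasone replicate 2 and control replicate 1. Its levels were 6.21, 6.57 and 6.37 with dexamethasone and 6.39, 6.29 and 6.27 in controls, or 6.38 ± 0.18 and 6.32 ± 0.06 (SD, n = 3 each). The highest and the lowest value were both dexamethasone stallions, and the probe was left untested by the filter. PER3 (GE56842) was above background in replicate 3 of each group, at 6.50 with dexamethasone and 6.61 in the control. Its other values were 6.25 in dexamethasone replicate 1 and 6.27 and 6.28 in control replicates 1 and 2, and the spot of dexamethasone replicate 2 carried a quality flag and was not used. Both PER3 values counted as detected thus came from the second run of slides. That rests on leaving out the flagged spot of dexamethasone replicate 2, which is on the first run. Its spot mean of 107 over a background of 54 was the highest of this probe, with a signal strength of 1.025. PER1, the PER gene outside the 10 and a known direct glucocorticoid target, was dim as well, with signal strengths of 0.849 to 1.40. It was at 6.52, 6.14 and 6.94 with dexamethasone and 6.44, 6.29 and 6.86 in controls, with a difference of 0.00 ± 0.20 (SE) and an interval from -0.44 to 0.45. With plain background subtraction the PER1 interval was wider, from -1.30 to 1.18.

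NR1D2, the REV-ERB receptor that represses BMAL1 through ROR elements, had 3 probes. GE86203 was at 8.53, 8.90 and 8.88 with dexamethasone and 8.81, 8.94 and 8.62 in controls. Low and high values occurred in both groups, and the difference was -0.02 ± 0.12 (SE). GE550510, designed on another NR1D2 sequence, was at 7.62, 8.07 and 7.64 with dexamethasone and 7.31, 7.70 and 7.44 in controls. Control replicate 2 lay above dexamethasone replicates 1 and 3, so the groups overlapped. The difference was 0.29 ± 0.14 (SE), with an interval from -0.02 to 0.61, and limma's unadjusted p of 0.0669 was the smallest of any member. Within the 2 runs of slides it was 0.34 and 0.20, and it was 0.15 without dexamethasone replicate 2. GE86202, designed on the same transcript record as GE86203, was above background only in replicate 3 of each group, at 6.62 and 6.59. The probes of this gene therefore gave unlike differences, and the difference between probes was not tested.

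The probe shared by NR1D1 and THRA (GE79069) was above background on all 6 arrays, at 6.82, 7.02 and 6.91 with dexamethasone and 6.87, 6.95 and 6.81 in controls. Its difference was 0.04 ± 0.09 (SE). Its annotation names both genes and its sequence was not used, so which transcript it reads is unknown and it gives no level for NR1D1.

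RORA, the orphan receptor that activates BMAL1 at the same elements, had 3 probes as well. GE790105 was at 7.71, 8.36 and 8.13 with dexamethasone and 7.67, 8.01 and 8.13 in controls. GE81213, designed on 4 RORA transcript records, was at 6.79, 7.45 and 7.10 with dexamethasone and 6.96, 7.01 and 7.17 in controls. On both probes dexamethasone replicate 2 was the highest stallion, and dexamethasone replicate 1 was the lowest or next to it. The differences were 0.12 ± 0.17 and 0.07 ± 0.15 (SE), and without dexamethasone replicate 2 they were -0.02 and -0.10. GE570332 was at 5.77, 6.35 and 6.52 with dexamethasone and 6.38, 6.84 and 6.48 in controls, above background in 1 of 3 and 2 of 3 stallions. Dexamethasone replicate 1 stood lowest, with a spot mean of 48.5 over a background of 47. The difference was -0.35 ± 0.19 (SE), with an interval from -0.76 to 0.07. It was -0.13 without dexamethasone replicate 1, 0.04 within the second run of slides and -1.79 ± 1.15 (SE) with plain background subtraction.

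DBP, the PAR bZIP transcription factor and a direct output of the BMAL1 and CLOCK dimer, was nearly level across the animals. GE81011 was at 8.67, 8.79 and 8.70 with dexamethasone and 8.69, 8.63 and 8.74 in controls, a range of 0.16 over all 6. The groups interleaved, and the difference was 0.04 ± 0.08 (SE) with an interval of 0.902-fold to 1.16-fold. On the deposited scaled intensity, which is linear, DBP was at 12.4, 13.8 and 14.5 with dexamethasone and 14.0, 13.0 and 14.6 in controls, and the groups overlapped there as well.

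**Figure D2:**
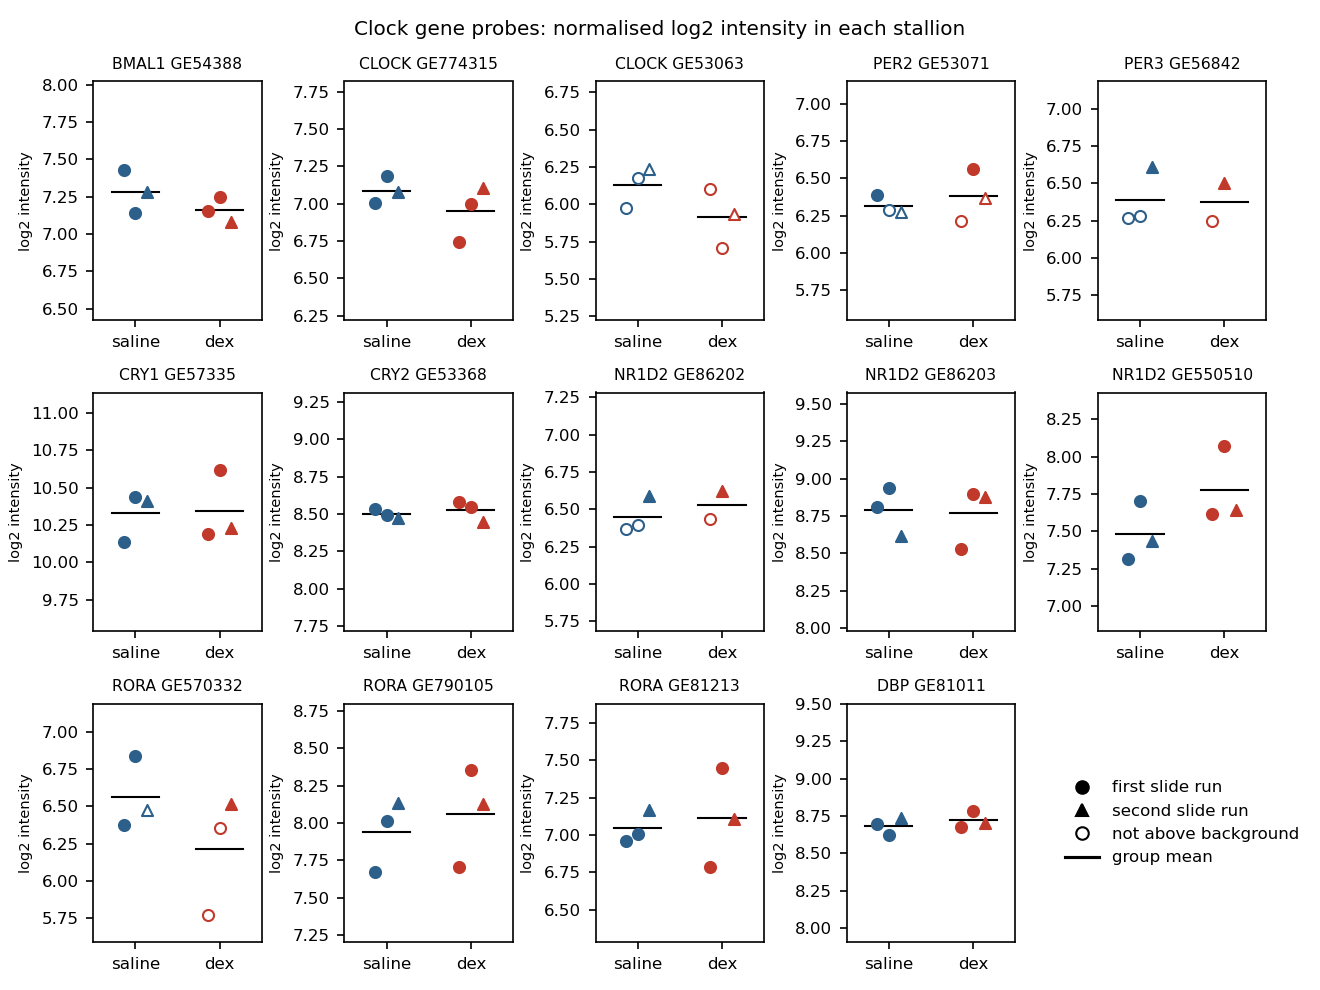
Normalised log2 intensity of each of the 14 clock gene probes, with 1 point per stallion and a line at the group mean; each panel spans 1.6 log2 units. Open symbols were not above background and triangles are the second run of slides. In every panel the groups overlap; CRY2 and DBP lie within 0.13 and 0.16 and the RORA probes spread over 0.66 to 1.06.

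The comparison of treated with saline stallions asked whether the clock genes differed 12 h after the glucocorticoid. Of the 10 probes tested, 0 passed limma's adjusted p of 0.05, with 1 of 24590 probes called over the array (0.00407%). All 10 had an adjusted p of 0.999. At an unadjusted p under 0.05 there were 0 of 10, against 3.29% of all probes, and groups that did not overlap were found for 0 of 10, against 9.27%. Of the 10 differences 6 were above 0 and 4 below, with a median of 0.02 where all tested probes had -0.01. That split was not stable: with median scaling or the authors' scaled intensity 3 were above 0 and 7 below, and the median over all probes moved to -0.08 and -0.07. Without dexamethasone replicate 2 it was also 3 and 7, and with array weights it was 5 and 5. The median size of the difference, without its sign, was 0.09 for the members and 0.07 for all tested probes. An exact permutation test on 1 gene, two-sided, reaches no p smaller than 0.1 with 3 stallions a group. The intervals apply to the normalised values: the constant added before taking logs compresses differences close to background. For dim probes, among them BMAL1, CLOCK, RORA GE81213 and GE570332 and PER1, the intervals therefore need not bound the change of the transcript. With background subtraction, which has no such constant, the interval was from -0.53 to 0.15 for BMAL1 and from -0.68 to 0.19 for CLOCK, and from -0.20 to 0.28 for DBP. It was from -0.53 to 0.71 for RORA GE81213, from -4.49 to 0.91 for RORA GE570332 and from -1.30 to 1.18 for PER1. For NR1D2 GE550510 it was from -0.09 to 0.89.

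**Figure D3:**
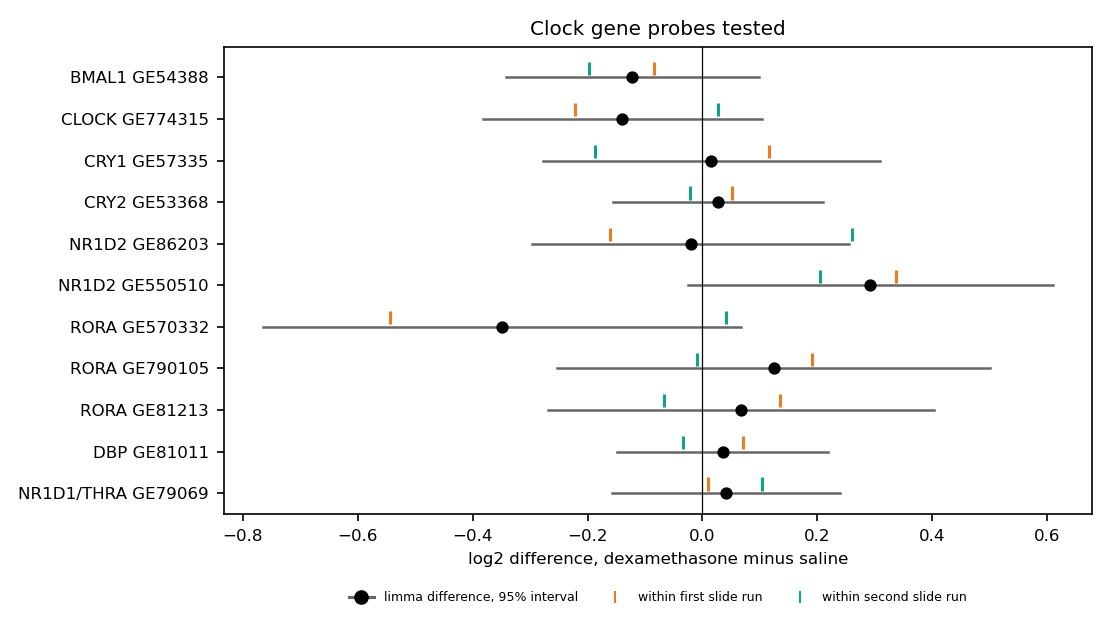
Log2 difference, dexamethasone minus saline, with limma's 95% interval for the 10 tested clock gene probes and the probe shared by NR1D1 and THRA; ticks above each point are the differences within the first and second run of slides. All intervals include 0, and for CRY1, CRY2, CLOCK, DBP, NR1D2 GE86203 and all 3 RORA probes the 2 runs lie on opposite sides of 0.

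The members varied unequally between animals of the same group. The residual standard deviation within groups was 0.05 for CRY2 and 0.06 for DBP, and 7.10% and 8.21% of all tested probes had a smaller one. For BMAL1 it was 0.12, with 50.6% of probes below it, and for CRY1 it was 0.20, with 87.6% below. The RORA probes had 0.25 to 0.32, with 93.5% to 97.6% of probes below them, and NR1D2 GE550510 had 0.23, with 91.4% below. The median over the 10 tested probes was 0.19, against 0.12 over all tested probes. These are descriptions, since the spread of a probe also depends on its level and no test of it was made. Animal, array and slide run all enter it, because the fit had no term for run, and they cannot be told apart.

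Between the runs of slides, with the treatment in the model, 0 of 10 member probes passed limma's adjusted p, where 2 of 24539 probes did (0.00815%), and 0 of 10 had an unadjusted p under 0.05, against 4.9% of all. Of the 36 tested genes of the clock network described next, 2 had an unadjusted run p under 0.05, PER1 and USP2, and 0 passed the adjusted p. PER1 was 0.55 ± 0.12 (SE) higher on the second run than on the first, at 6.90 against 6.35, with an unadjusted p of 0.00154 and limma's adjusted p of 0.949. USP2, a deubiquitinase, was 0.40 ± 0.13 (SE) higher there, with limma's unadjusted p of 0.0128 and adjusted p of 0.972; it is named because it made up that count. Of the untested probes, PER3 had means of 6.55 and 6.27 on the second and first run, and NR1D2 GE86202 had 6.61 and 6.40. For both, the mean of the first run lacks dexamethasone replicate 2, whose spot carried a quality flag. PER2 went the other way, with 6.32 on the second and 6.36 on the first run. CLOCK GE53063, above background on 0 arrays, had 6.09 and 5.99. The stallions of the second run differ from the others in animal and slide run at once, and these cannot be told apart.

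A list of 65 other genes of the clock and its regulation, among them kinases, phosphatases, ubiquitin ligase parts and corepressors, had a probe for 52 and a tested one for 36. Of the 36, 0 passed the adjusted p of limma; 17 differences were above 0 and 19 below, and the median was -0.01, like that of all tested probes. At an unadjusted p under 0.05 there were 3 of 36, against 3.29% of all probes, and the groups did not overlap for 4 of 36, against 9.27% of all probes. PPP1CA, a catalytic subunit of the phosphatase that acts on PER proteins, was at 8.33, 8.45 and 8.49 with dexamethasone and 8.79, 8.71 and 8.79 in controls. Every control lay above every treated stallion, and the difference was -0.34 ± 0.08 (SE, limma unadjusted p = 0.00254, adjusted p = 0.999). CSNK1A1, a casein kinase, was at 11.35, 11.63 and 11.41 against 11.14, 11.32 and 11.15, a difference of 0.26 ± 0.10 (SE), and 2 further probes of it were above background on 0 arrays. PASD1, a germ cell PAS domain protein known to inhibit the BMAL1 and CLOCK dimer, was at 10.77, 10.69 and 10.80 against 10.99, 10.86 and 11.00, a difference of -0.20 ± 0.08 (SE). For these 3 genes the groups did not overlap, but none passed adjusted over all probes. Within the 2 runs of slides the differences were -0.36 and -0.30 for PPP1CA, 0.26 and 0.25 for CSNK1A1 and -0.19 and -0.21 for PASD1. The 3 were named for having the smallest p of the 36, which favours like values in both runs, so this likeness supports nothing. With background subtraction the intervals were from -0.64 to -0.15 for PPP1CA, from -0.02 to 0.55 for CSNK1A1 and from -0.44 to 0.04 for PASD1. Without a filter on dim probes that of PASD1 was from -0.39 to 0.0034. With median scaling the differences were -0.46, 0.13 and -0.34 in the same order of genes. The fourth gene without overlap was TIMELESS, a replication fork protein related to a fly clock gene, at 6.64 and 6.57 in the 2 usable dexamethasone arrays and 6.67, 6.75 and 6.74 in controls.

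TEF, a PAR bZIP factor of the same family as DBP, differed by 0.28 ± 0.14 (SE), with levels of 8.54, 8.94 and 9.00 against 8.32, 8.59 and 8.72 that overlapped. NRIP1, a corepressor of nuclear receptors, differed by 0.20 ± 0.10. The paralogue of CLOCK, NPAS2, differed by 0.05 ± 0.09 on its brightest probe and by -0.05 ± 0.09 on another. The repressors BHLHE40, BHLHE41 and CIART differed by -0.03 ± 0.11, -0.05 ± 0.18 and 0.01 ± 0.11, and CIART lacked dexamethasone replicate 1. BHLHE41 was dim, and with background subtraction its interval was from -1.19 to 1.18. RORB, a relative of RORA, differed by 0.12 ± 0.12. The kinases CSNK1D and CSNK1E, which phosphorylate PER proteins, differed by -0.00 ± 0.09 and -0.03 ± 0.12 (log2, SE), and a second tested probe of CSNK1E differed by 0.04 ± 0.11. The probes of NFIL3, the repressor that competes with DBP, and HLF, its family member, were above background on 0 arrays. The same held for a further probe of each of RORB, NRIP1, BHLHE40 and CSNK1E. ARNTL2, the paralogue of BMAL1, had no probe with its symbol alone.

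**Figure D4:**
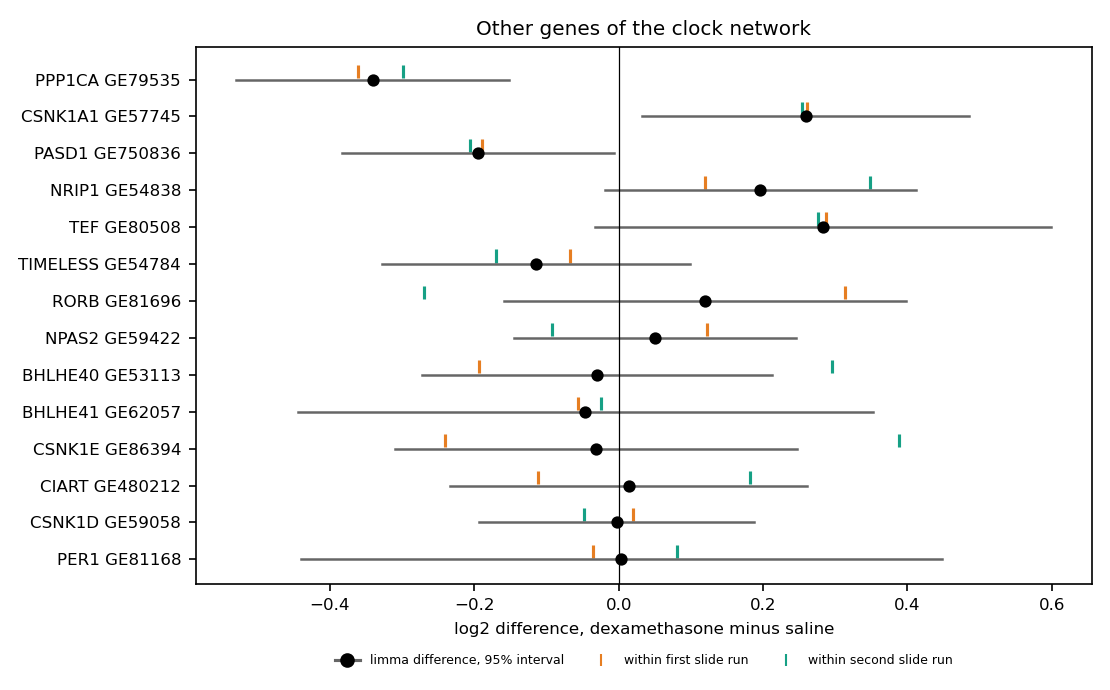
Log2 difference, dexamethasone minus saline, with limma's 95% interval for PER1 and 13 other genes of the clock network; ticks are the differences within each run of slides. The intervals of PPP1CA, CSNK1A1 and PASD1 leave out 0 before adjustment and those of the remaining genes include it; with background subtraction those of CSNK1A1 and PASD1 include 0 as well.

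Under other processing the dim RORA probe GE570332 moved most, from -0.35 as reported to -1.79 with background subtraction, -1.25 with an offset of 0 and -1.51 on the authors' scaled intensity. BMAL1 and CLOCK GE774315 stayed below 0 in all 17 alternative settings, from -0.23 to -0.05 and from -0.26 to -0.04, and NR1D2 GE550510 stayed above 0, from 0.15 to 0.40. CRY1 ranged from -0.14 to 0.09, CRY2 from -0.10 to 0.07 and DBP from -0.09 to 0.06, each on both sides of 0. Of the 10 member probes tested as reported, 0 passed limma's adjusted p under any of the 17 settings. The 4 untested member probes were not counted there. Without a filter on dim probes each of them had limma's adjusted p of 0.999.

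**Figure D5:**
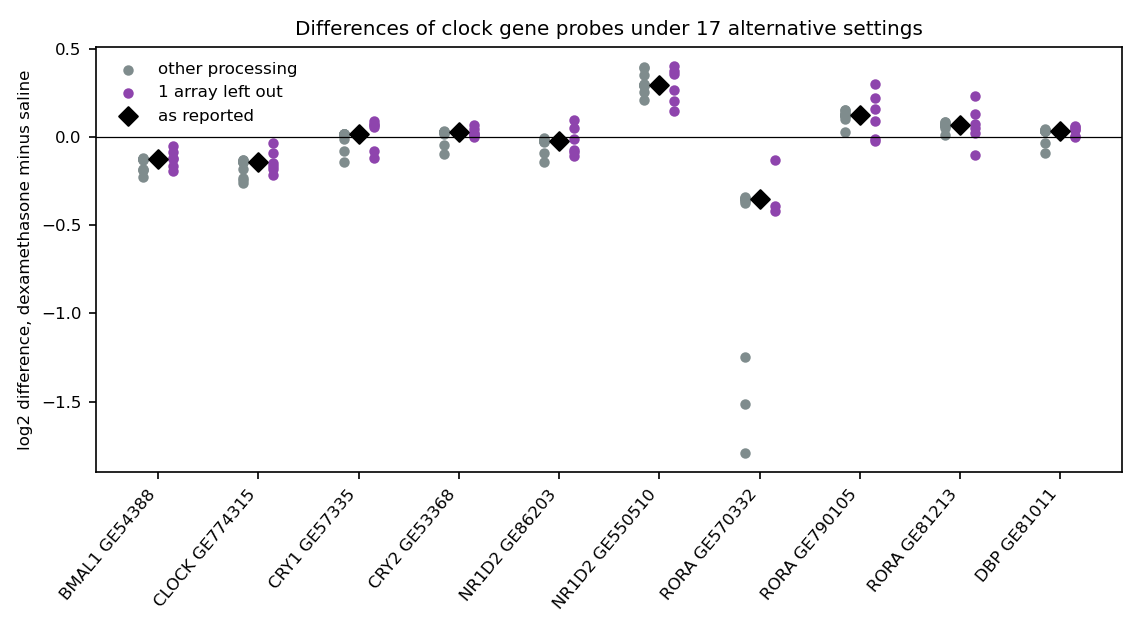
Log2 differences, dexamethasone minus saline, of the 10 tested clock gene probes as reported (diamonds), under other processing (grey) and with 1 array left out (purple). Except for RORA GE570332, which reaches -1.79, every value lies between -0.26 and 0.40.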

How the data were processed

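Intensities from testes of 6 stallions on 6 one-colour CodeLink human arrays were used. Per the file headers, the authors' scanner output gives for every spot a mean intensity, a median background intensity, a quality flag and an intensity scaled by array. The deposited signal strength is a score, the spot mean over a noise level, which from the values is the background median plus 1.5 background standard deviations. Which software read the slides, and its rule for flags, is not given in the sources used here. Spots flagged M had no value, and those flagged C, I or P (318 to 1171 gene probes per array) were taken as missing. Intensities were corrected with normexp (offset 50), stripped of control probes, quantile normalised and put on the log2 scale, using limma 3.58.1 in R 4.3.3. Probes above background on at least 3 arrays, with at least 2 values per group, were tested with lmFit and eBayes, as two-sided tests, and p-values were adjusted over all 24590 by Benjamini and Hochberg's method. The fit was tested on simulated data. Alternatives were other background corrections, scalings and filters on dim probes, flagged spots kept, trend and robust eBayes, array weights, slide run as a block and each array left out. Figures used matplotlib 3.10.9.

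Members and lists were chosen with earlier results of these data known. Named genes were all members, PER1, the 5 network genes with the smallest p and a list of 14 clock regulators, and the brightest tested probe stood for a network gene. Replicate numbers follow sample order and pair no animals. Probe and horse sequences were not used here, so the match of human probes to horse transcripts is unknown, and a dim spot is no sign of a scarce transcript. Nor does a bright spot show that the transcript of its named gene was read. Promoter motifs were planned and not analysed here.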

Additional observations from a re-analysis of the deposited data

How the results depend on the processing

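The 17 alternatives changed no call: of the member probes and network genes tested as reported, 0 passed limma's adjusted p in each of them. Over the array, 1 of 24590 probes was called as reported and with median scaling, cyclic loess or the authors' scaled intensity. With background subtraction it was 0. With so few calls over the array, an unchanged count of 0 cannot show that the result is stable. Of 396 alternative values of single probes 41 changed sign, none of them called. Over all probes, 1798 had an unadjusted p under 0.05 with median scaling, against 808 as reported. With median scaling, where all tested probes had a median of -0.08, CRY1 differed by -0.14, CRY2 by -0.10, DBP by -0.092, CIART by -0.14 and RORB by -0.0019. With the authors' scaled intensity, where that median was -0.07, the values were -0.078 for CRY1, -0.045 for CRY2, -0.036 for DBP, -0.027 for CIART, -0.042 for PER1 and 0.037 for BHLHE41. PER1 differed by -0.062 with background subtraction and -0.046 with an offset of 0, CRY1 by -0.011 with array weights and CSNK1D by 0.0023 with cyclic loess. The cause was not tested. The median of the member probes was -0.12 with median scaling and -0.06 with the authors' values, against 0.02 as reported.

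Without each array in turn, the differences ran from -0.12 to 0.092 for CRY1, from -0.00089 to 0.066 for CRY2, from -0.11 to 0.10 for NR1D2 GE86203, from -0.022 to 0.30 for RORA GE790105 and from -0.10 to 0.23 for RORA GE81213. They ran from -0.20 to 0.20 for PER1, from -0.13 to 0.031 for BHLHE40, from -0.27 to 0.082 for BHLHE41, from -0.029 to 0.077 for CIART, from -0.047 to 0.034 for CSNK1D and from -0.15 to 0.048 for CSNK1E. The median of the member probes was -0.09 without dexamethasone replicate 2 and 0.08 without dexamethasone replicate 1. RORA GE570332 was left untested when detection on all 6 arrays was asked for and without control replicate 1, control replicate 2 or dexamethasone replicate 3, since fewer arrays were then above background. It differed by -1.25 with an offset of 0, and by -1.51 on the scaled intensity. The members had a median of 0.02 in the fit with slide run as a block, and within the first and second run it was 0.06 and -0.02. No paired analysis was possible because the labels give no number that links a treated to a control stallion. Signal over background limits what PER2, PER3, CLOCK GE53063 and NR1D2 GE86202 can show.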

Other observations

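Among the 9 member probes above background on all 6 arrays, dexamethasone replicate 2 was the highest stallion for 5, namely CRY1, NR1D2 GE550510, DBP and the RORA probes GE790105 and GE81213. Over all 18759 probes with 6 such values it was the highest for 16.9%. With median scaling it was the highest for 3 of the 9, against 5.23% of all probes, and with the authors' scaled intensity for 4, against 9.44%. Dexamethasone replicate 1 was the lowest for 3 of the 9 as reported and for 6 of the 9 under both other scalings, against 18.7%, 16.8% and 30.9% of all probes. The array of dexamethasone replicate 2 also had the fewest probes above background, 22690. These counts were made after the values had been seen, and no test was made. Among the 9, the NR1D2 probes share a gene, as do the RORA probes.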
